A study of Arabidopsis thaliana with 8 samples.

Results

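Transposable elements lowered by heat were taken here as 462 of the 31189 transposable element loci measured in whole Arabidopsis thaliana seedlings. Transposable elements are mobile DNA sequences that plants keep largely silent, through DNA methylation, repressive histone marks and small RNAs that guide methylation to matching sequences (RNA-directed DNA methylation). Heat is best known in this species for raising the RNA of some elements, so the loci described here are those that went the other way. An element locus can give RNA from its own promoter, or be covered by the transcript of a neighbouring or host gene, and a read count at the locus does not separate the 2 sources.

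The seedlings were wild type of the Columbia ecotype, labelled as 7 days old, in 4 groups of 2 libraries. The control group CTRL carries no treatment in its labels. LHS (long heat stress) seedlings were harvested after 30 h at 37 °C. The LHSR12 group had this heat and then 12 h at 22 °C, and the LHSR84 group had it and then 84 h at 22 °C. Total RNA of whole seedlings was sequenced, so fewer cells of a type and less RNA per cell cannot be told apart. Whether the 2 libraries of a group are separate cultures is not in the labels, and p-values here then reflect only the spread among these samples, which may be technical. All groups carry the same age label, and whether it counts the time in heat and recovery is not in the labels. Clock time at sampling is not in them either. The effects of age and clock time cannot be told apart from those of heat and recovery.

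The members were chosen by measured values: a mean of at least 3 scaled reads in CTRL, and a ratio of the LHS mean to the CTRL mean of at most 0.5, with 1 added to each mean. Scaled reads are read counts divided by a factor for the library, not corrected for the length of the locus, so an order of loci by scaled reads is not an order of levels per length. Of the element loci, 1377 reached the CTRL mean of 3, and 462 of these (33.6%) met the ratio as well. The other 915 were outside the rule, and 328 of them were at or above 2 times the CTRL mean in LHS. Since CTRL and LHS chose the members, their values in these groups are given as description, with no test. The LHSR12 and LHSR84 libraries played no part in the choice, so the members were tested between these. In the 7 libraries whose reads were recovered, 18.9 M to 28.3 M reads lay at gene loci (M for 1e6). Replicates of a group differed on the log2 scale by a median of 0.44 to 0.55 at members and of 0.18 to 0.26 at all loci tested, so members were less precise than most loci.

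The members' scaled reads summed to 52149 and 49742 in the CTRL libraries, 9219 and 9325 in LHS, 31837 and 32851 in LHSR12, and 54299 and 51299 in LHSR84. The replicates lay close together in each group, LHS was lowest, LHSR12 lay between LHS and CTRL, and LHSR84 was near CTRL. One locus, AT1TE90210, held 14.5% and 18.2% of the sum in CTRL and 12.8% and 11.0% in LHSR84. Without it the sums were 44564 and 40670 in CTRL, 8827 and 8789 in LHS, 31445 and 32134 in LHSR12, and 47352 and 45681 in LHSR84, in the same order of LHS, LHSR12 and the other groups. All element loci together took 0.586% and 0.627% of scaled reads in CTRL, 3.58% and 4.39% in LHS, 2.15% and 1.76% in LHSR12, and 1.10% and 0.991% in LHSR84. The members' share of element reads was 34.6% and 33.1% in CTRL, 0.977% and 0.753% in LHS, 6.66% and 8.45% in LHSR12, and 21.4% and 22.6% in LHSR84. The share was thus below CTRL in LHSR84, where the members' summed reads were near CTRL and the reads of all element loci were above it.

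**Figure D1:**
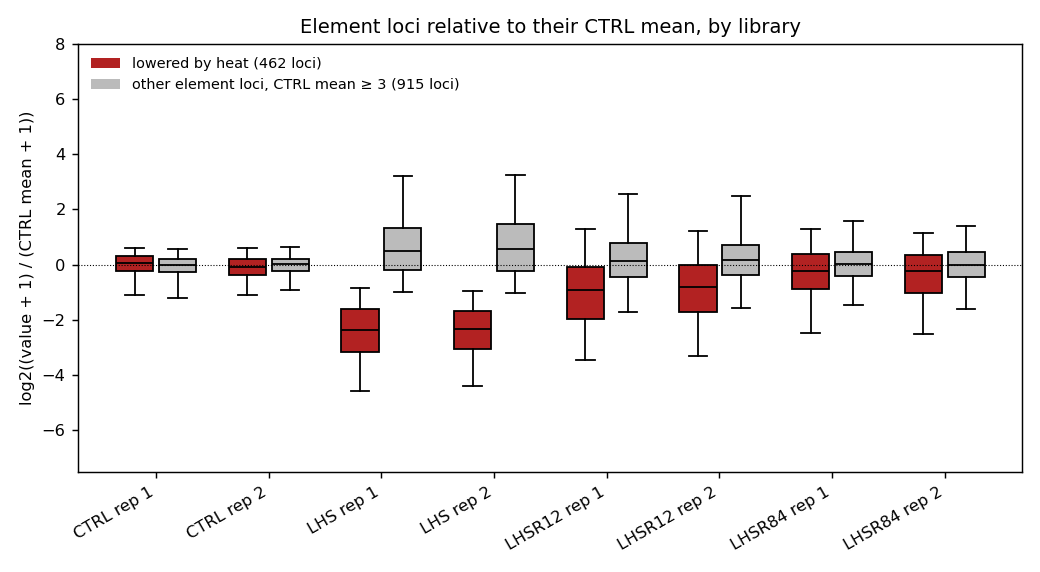
Log2 of each library's value plus 1 over the CTRL mean plus 1 (y axis), for the 462 members (red) and the 915 element loci outside the rule with a CTRL mean of at least 3 (grey), with a pair of boxes for each library. Boxes give the quartiles and median and whiskers the 5th and 95th percentiles, and the members' median was −2.37 and −2.35 in LHS, which the rule fixes, −0.91 and −0.80 in LHSR12, and −0.23 and −0.24 in LHSR84.

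A typical member was a low-count locus. The CTRL mean ran from 3.10 to 8329 scaled reads with a median of 16.1 and quartiles of 6.89 and 59.3. Over both CTRL libraries the reads behind a member numbered 5 to 14057 with a median of 27, and 191 members had under 20 reads and 90 under 10. The median member was at 16.9 and 16.1 scaled reads in the CTRL libraries, 2.00 and 2.03 in LHS, 9.96 and 10.1 in LHSR12, and 16.5 and 15.8 in LHSR84. The median was thus lowest in LHS and near CTRL in LHSR84. The number of members at 0 was 9 and 8 in CTRL, 167 and 150 in LHS, 58 and 48 in LHSR12, and 37 and 40 in LHSR84. At 3 reads, the limit that a count of 0 allows, LHS replicate 2 would have shown 3.04 scaled reads, so for members near the CTRL minimum of 3 a count of 0 in LHS is compatible with no difference from CTRL. Such limits cover counting error at the count of 0 only, and the fold limits given below take the mean of the other group as it was measured.

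The median LHS ratio was 0.210, with quartiles of 0.126 and 0.335, while the 915 loci outside the rule had a median of 1.46, as the rule makes them differ. At most 0.25 of CTRL was left at 285 members and at most 0.1 at 82, and 108 were at 0 in both LHS libraries. Both LHS values were below both CTRL values at 429 members (92.9%), against 37.9% of all loci tested, and at 33 members the groups overlapped. These counts follow from the choice of members, so no test of LHS against CTRL is given for them and nothing is read from them. The rule was met in each of the 4 pairings of a single LHS with a single CTRL library by 291 members, so at the others it rests on the group means.

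Just inside the ratio threshold were AT1TE30555, with 512 and 412 scaled reads in LHS against 1227 and 635 in CTRL, and AT5TE73780, with 43.1 and 70.0 in LHS against 86.7 and 144 in CTRL. Just outside were AT3TE43635 (5.01 and 2.03 in LHS, 4.06 and 11.8 in CTRL) and AT4TE34780 (1.00 and 4.06 in LHS, 10.8 and 1.07 in CTRL). Just inside the CTRL threshold were AT1TE37070 and AT1TE42605, each with 0 in both LHS libraries and with 4.06 and 2.15 in CTRL, which is 3 and 2 reads. Just outside were AT1TE39540 and AT1TE41565, each with 0 in both LHS libraries and 2.71 and 3.22 in CTRL. Loci on either side of the CTRL threshold thus had alike values in CTRL and LHS. At the ratio threshold the ratios were alike, at 0.496 and 0.495 inside and 0.506 and 0.507 outside. The loci inside had more scaled reads, and at those outside LHS and CTRL overlapped.

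The 6 members with the most scaled reads in CTRL show several courses. The locus AT1TE90210 had 7586 and 9072 scaled reads in CTRL, 393 and 537 in LHS, 392 and 717 in LHSR12, and 6947 and 5618 in LHSR84. It was as low after 12 h of recovery as at the end of heat, and LHSR84 was above LHSR12 by 3.56 on the log2 scale (SE 0.27, limma adjusted p = 5.34e-05). AT1TE71775 had 2605 and 2127 in CTRL, 324 and 434 in LHS, 2440 and 1973 in LHSR12, and 4494 and 4564 in LHSR84. Its LHSR12 values overlapped CTRL, and LHSR84 was above LHSR12 (log2 fold change 1.05, SE 0.17, limma adjusted p = 0.00203). AT4TE13950 had 1546 and 1381 in CTRL, 737 and 695 in LHS, 847 and 937 in LHSR12, and 2012 and 1785 in LHSR84 (1.09, SE 0.11, limma adjusted p = 0.000227 for LHSR84 against LHSR12), with LHS close to the ratio of 0.5.

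The other 3 of these did not differ between LHSR84 and LHSR12 by the test. AT5TE18970 had 2450 and 1980 scaled reads in CTRL, 139 and 180 in LHS, 1336 and 1423 in LHSR12, and 1184 and 1387 in LHSR84 (limma adjusted p = 0.642). It was between LHS and CTRL at both recovery times. AT2TE37325 had 1891 and 2402 in CTRL, 812 and 588 in LHS, 3923 and 4392 in LHSR12, and 3440 and 3504 in LHSR84 (limma adjusted p = 0.275), above both CTRL libraries in all recovery libraries. AT3TE55070 had 1666 and 1534 in CTRL, 256 and 302 in LHS, 712 and 787 in LHSR12, and 1011 and 914 in LHSR84 (limma adjusted p = 0.0529). Its call depended on the setting: it passed under 5 of 17 alternatives, among them TMM scaling and edgeR.

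The 6 members with the lowest LHS ratio, among those with a CTRL mean of at least 10, were near or at 0 in LHS. AT1TE71830 had 0 in both LHS libraries against 347 and 379 in CTRL, at least 119-fold lower with 3 reads per library as the floor. AT4TE10320 had 0 in both LHS libraries against 332 and 250 in CTRL, at least 95.6-fold lower. Neither had a read detected in heat. AT1TE71760 had 2.00 and 4.06 in LHS against 1057 and 951 in CTRL, and AT4TE42860 had 6.01 and 3.04 in LHS against 1304 and 782 in CTRL. AT4TE02990 had 1.00 and 0 in LHS against 137 and 218 in CTRL, and AT2TE50950 had 3.0 and 0 in LHS against 203 and 292 in CTRL. None of the 6 overlapped between the groups.

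These 6 parted in recovery. AT2TE50950 had 325 and 560 scaled reads in LHSR84 and 284 and 275 in LHSR12, both in the range of CTRL or above it. AT4TE10320 had 216 and 174 in LHSR84 against 30.6 and 47.2 in LHSR12 (log2 fold change 2.32, SE 0.34, limma adjusted p = 0.00133), and AT4TE42860 had 725 and 684 against 160 and 154 (2.16, SE 0.31, limma adjusted p = 0.00114). Both were well below CTRL at 12 h and nearer to it at 84 h. AT1TE71830 had 740 and 651 in LHSR84 against 248 and 309 in LHSR12 (1.32, SE 0.22, limma adjusted p = 0.00257), and AT1TE71760 had 2003 and 1925 against 720 and 793 (1.38, SE 0.23, limma adjusted p = 0.00234). These loci were above all their CTRL values at 84 h. AT4TE02990 had 156 and 284 in LHSR84 against 46.7 and 68.8 in LHSR12 (1.87, SE 0.47, limma adjusted p = 0.0157), a call lost without LHSR12 replicate 1, LHSR12 replicate 2 or LHSR84 replicate 2, or with a pseudocount of 0.1.

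**Figure D2:**
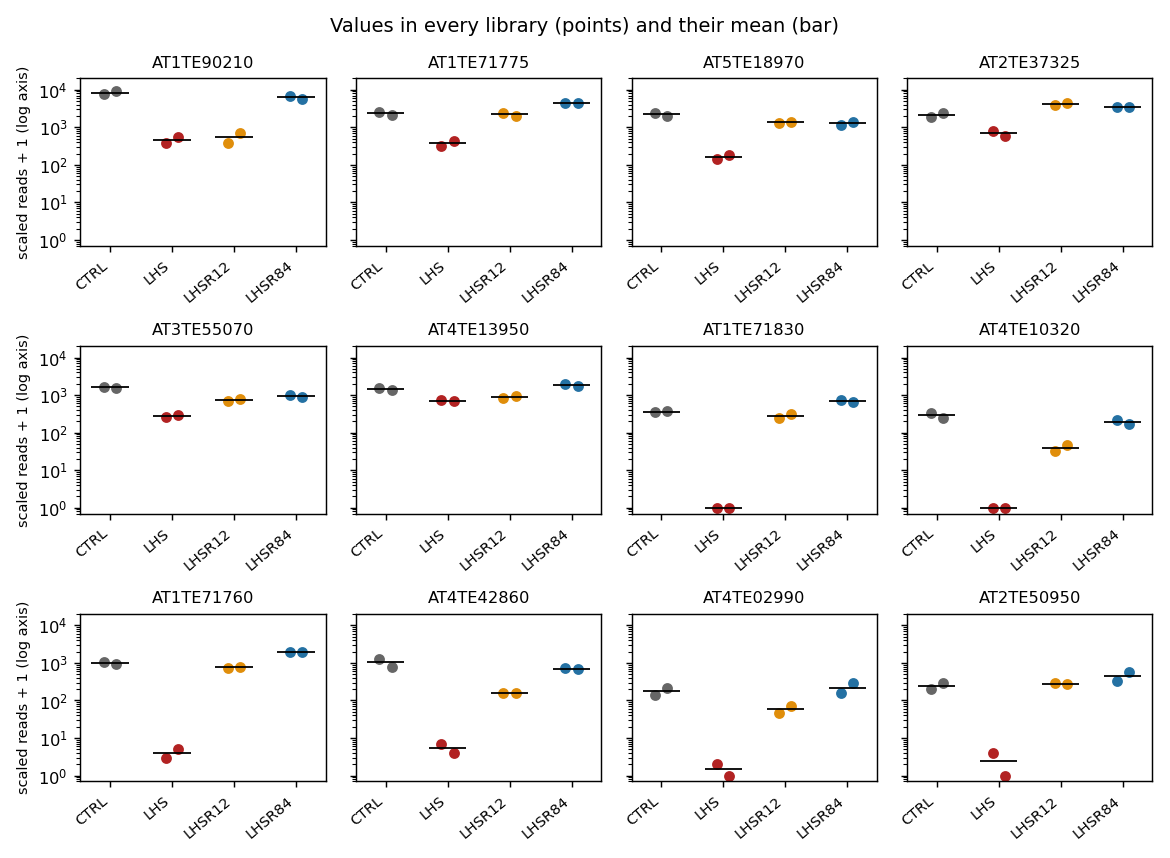
Scaled reads plus 1 (y axis, log) in the 4 groups (x axis) for the 6 members with the most scaled reads in CTRL and the 6 with the lowest LHS ratio. Points are libraries and bars are group means. AT1TE71830 and AT4TE10320 were at 0 in both LHS libraries, and AT1TE90210 was still low in LHSR12 and near CTRL in LHSR84.

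The courses of all members were described by whether a recovery group had reached 0.5 of the CTRL mean, again with 1 added to each mean. LHSR12 had reached it at 252 members (54.5%) and LHSR84 at 367 (79.4%). Of the loci outside the rule, which were above that ratio in LHS by construction, 90.4% were at that level in LHSR12 and 92.7% in LHSR84. The median member ratio to CTRL was 0.567 in LHSR12 (quartiles 0.326 and 0.940) and 0.850 in LHSR84 (quartiles 0.547 and 1.25). Both times share the CTRL libraries, which also chose the members for being high there, so the recovery ratios carry no test.

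At 236 members (51.1%) the level was reached at both times, and at 131 (28.4%) in LHSR84 only. At 79 (17.1%) it was reached at neither time, and at 16 (3.46%) in LHSR12 only. Of the loci outside the rule, 6.56% were at that level in LHSR84 only and 3.06% at neither time. Members reached at both times had a median of 22.9 scaled reads in LHSR84 and 22.1 in LHSR12, above their CTRL median of 17.6. Those reached in LHSR84 only had a median of 18.9 in LHSR84, 6.91 in LHSR12 and 20.5 in CTRL, and those reached at neither time had 1.67 in LHSR84, 0.773 in LHSR12 and 9.17 in CTRL. The share reached at neither time was 25.4% for CTRL means of 3 to 10, 12.4% for 10 to 100 and 12.0% for 100 or more, so it was highest where few reads stand behind the classes.

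**Figure D3:**
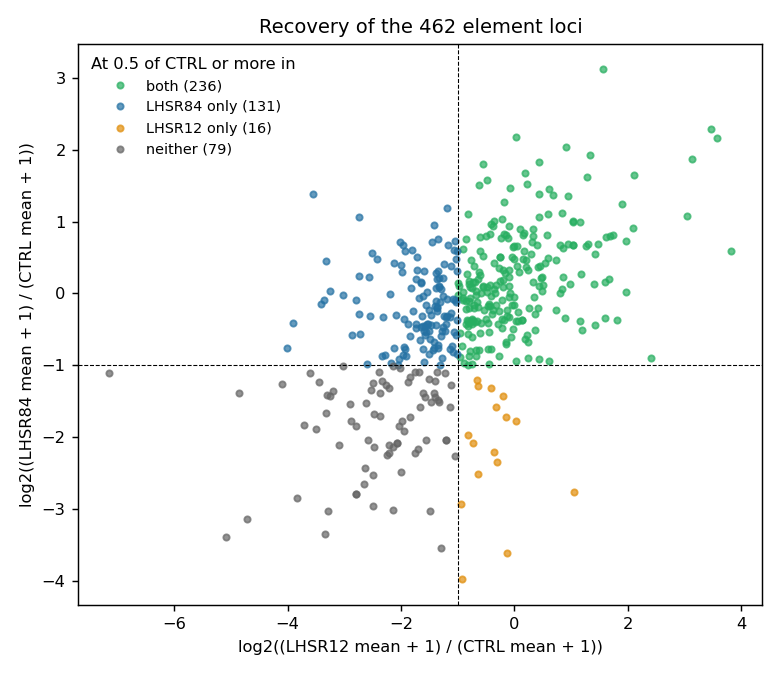
Each point is a member, with log2 of the LHSR12 mean plus 1 over the CTRL mean plus 1 on the x axis and the same for LHSR84 on the y axis. Dashed lines mark 0.5 of CTRL and part the members into 236 above it at both times, 131 in LHSR84 only, 16 in LHSR12 only and 79 at neither time.

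Among members reached at neither time, AT2TE09335 had 639 and 77.2 scaled reads in CTRL, 62.1 and 38.5 in LHS, 62.1 and 61.1 in LHSR12, and 175 and 106 in LHSR84. Its CTRL libraries disagreed, so its class rests on CTRL replicate 1. AT1TE21135 had 138 and 265 in CTRL, 56.1 and 64.9 in LHS, 39.8 and 68.1 in LHSR12, and 66.2 and 104 in LHSR84, below both CTRL values throughout. AT4TE32400 had 192 and 198 in CTRL, 12.0 and 13.2 in LHS, 7.66 and 3.87 in LHSR12, and 67.3 and 80.9 in LHSR84. It stayed below CTRL although LHSR84 was above LHSR12 by 3.53 on the log2 scale (SE 0.37, limma adjusted p = 0.000222).

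Reached in LHSR12 only were AT4TE44655, AT3TE63130 and AT3TE67635, the 3 of that class with the most scaled reads in CTRL. AT4TE44655 had 35.2 and 69.7 scaled reads in CTRL, 9.01 and 7.10 in LHS, 42.1 and 36.3 in LHSR12, and 21.3 and 19.7 in LHSR84, and LHSR84 was not called against LHSR12 (limma adjusted p = 0.122). AT3TE67635 had 2.71 and 26.8 in CTRL, 0 and 7.10 in LHS, 5.36 and 9.28 in LHSR12, and 0 in both LHSR84 libraries. It was not called between LHSR84 and LHSR12 (limma adjusted p = 0.0680), though it was called under 6 of 17 alternatives. Its LHS and CTRL values overlapped. Above CTRL by 2 times or more were 36 members in LHSR12 and 34 in LHSR84, of which 11 were at both times. LHSR12 was below LHS in mean at 41 members and LHSR84 at 17, and 8 members were at 0 in all LHS, LHSR12 and LHSR84 libraries. The highest group mean was in CTRL at 251 members, in LHSR84 at 140 and in LHSR12 at 71.

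The test between recovery times compared libraries that did not choose the members, but the CTRL and LHS libraries also entered the fit and its spread. LHSR84 was above LHSR12 at 98 of 454 tested members (21.6%) and below it at 16 (3.52%), by limma at an adjusted p below 0.05. Over all loci tested 16.5% were higher and 19.5% lower, and over all element loci tested 5.24% were higher and 20.7% lower. An element locus can pass the filter through its LHS or LHSR12 reads alone, and element reads were above CTRL in those groups. The shares over all element loci thus depend on the filter, and nothing is read from them. The members' share of higher calls was above that of all loci, and their share of lower calls was below it. Element loci outside the rule with a CTRL mean of at least 3 were higher in 40 cases (4.37%) and lower in 101 (11.0%). Their LHS values set these loci apart from the members, and gene loci lowered in LHS were not compared. Whether the members' higher share of rises is particular to element loci was thus not tested. The 8 members left out by the filter on low values had too few reads to test. By limma, 161 of the 454 tested members were at an unadjusted p below 0.05. Beside this were 12635 of the 27638 loci tested and 234 of the 915 element loci outside the rule. With only the LHSR12 and LHSR84 libraries in the fit, 84 members were higher and 14 lower, beside 4294 and 5073 of all loci.

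The median log2 fold change of LHSR84 over LHSR12 was 0.56 over tested members (quartiles −0.07 and 1.23), −0.08 over all loci, −0.38 over all element loci and −0.19 over element loci outside the rule. It was positive at 323 of the 454 tested members. Both LHSR84 values were above both LHSR12 values at 212 members, beside 32.2% of all loci tested, and below both at 60, beside 39.7% of all loci tested. Over element loci tested, with a mean of at least 1 over the 8 libraries, the log2 fold change was positive at 1064 of 3014. This count and the median over all element loci depend on that filter as well.

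The share of members called was highest at high CTRL means. With a CTRL mean of 100 or more, 47 of 83 members (56.6%) were higher and 3 lower, with a median log2 fold change of 0.85. At that level 11.1% of element loci outside the rule were higher and 10.1% lower, with a median of −0.02. Of gene loci 22.3% were higher and 18.4% lower, with a median of −0.01. With a CTRL mean of 10 to 100, 36 of 210 members (17.1%) were higher and 8 (3.81%) lower. Beside this, 12.8% of gene loci were higher and 16.8% lower, and 3.78% of element loci outside the rule were higher and 11.3% lower. With a mean of 3 to 10, 15 of 161 tested members (9.32%) were higher and 5 (3.11%) lower. Beside this, 6.92% of gene loci were higher and 18.1% lower, and 1.22% of element loci outside the rule were higher and 11.2% lower. Fewer members were called in either direction when any 1 of the LHSR12 or LHSR84 libraries was left out, and fewer of all loci were as well. The members' median log2 fold change was 0.51 without LHSR12 replicate 1 and 0.60 without LHSR12 replicate 2. It was 0.52 without LHSR84 replicate 1 and 0.62 without LHSR84 replicate 2. Over all loci it was −0.07 in each of these fits.

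**Figure D4:**
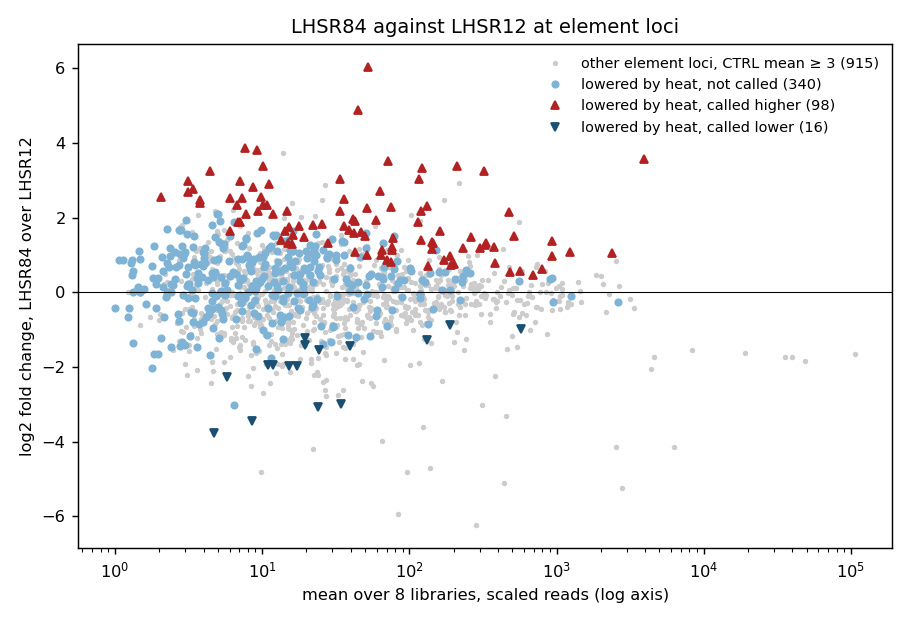
Log2 fold change of LHSR84 over LHSR12 (y axis) against the mean scaled reads over 8 libraries (x axis, log) for each tested member and for the 915 element loci outside the rule (grey). Triangles mark the 98 members called higher and the 16 called lower by limma, and the members' median was 0.56, against −0.19 for the grey points.

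The 98 higher calls had log2 fold changes of 0.47 to 6.03 with a median of 1.78. AT4TE10030 had the largest, with 65.0 and 64.1 scaled reads in LHSR84 against 0 in both LHSR12 libraries (6.03, SE 0.72, limma adjusted p = 0.000454), at least 27.95-fold higher. It had 1.00 and 10.1 in LHS and 169 and 112 in CTRL, so it was undetected at 12 h of recovery and short of CTRL at 84 h. AT3TE65065 had 160 and 86.8 in LHSR84 against 3.83 and 2.32 in LHSR12 (4.89, SE 0.44, limma adjusted p = 0.000112), beside 8.01 and 5.07 in LHS and 46.1 and 47.2 in CTRL. That locus was above CTRL at 84 h.

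AT4TE69880 had 325 and 462 scaled reads in LHSR84 against 23.0 and 56.5 in LHSR12 (log2 fold change 3.39, SE 0.45, limma adjusted p = 0.000803), beside 358 and 413 in CTRL. AT5TE69965 had 621 and 540 in LHSR84 against 58.2 and 61.1 in LHSR12 (3.26, SE 0.54, limma adjusted p = 0.00232), beside 397 and 891 in CTRL. Both had LHSR84 values in the range of CTRL or close to it. AT5TE93305 had 128 and 162 in LHSR84 against 9.19 and 19.3 in LHSR12 (3.33, SE 0.34, limma adjusted p = 0.000209), beside 88.1 and 73.0 in LHS and 244 and 249 in CTRL. It was lower at 12 h than in LHS. AT5TE54995, AT5TE37730 and AT1TE03900 also had large rises, of 3.85, 3.80 and 3.39, on CTRL means of 8.21, 12.8 and 13.6 scaled reads. AT1TE03900 lost its call when only the LHSR12 and LHSR84 libraries entered the fit, and the other 2 kept theirs in each of 17 alternatives.

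The 16 lower calls had log2 fold changes of −3.78 to −0.88 with a median of −1.94, and LHSR12 had been above CTRL in mean at 14 of them. AT5TE31020 had 0 in both LHSR84 libraries against 16.1 and 10.1 in LHSR12 (−3.78, SE 0.64, limma adjusted p = 0.00244), at least 4.02-fold lower, beside 9.48 and 2.15 in CTRL. AT3TE63130 had 0 and 0.986 in LHSR84 against 9.19 and 22.4 in LHSR12 (−3.45, SE 0.75, limma adjusted p = 0.00814), beside 0 and 1.01 in LHS and 27.1 and 7.51 in CTRL. Both loci were near 0 at 84 h as in heat. AT3TE41165 had 4.73 and 10.8 in LHSR84 against 35.2 and 129 in LHSR12 (−3.06, SE 0.70, limma adjusted p = 0.0104), and AT5TE50260 had 8.27 and 11.8 against 173 and 42.5 (−3.00, SE 0.68, limma adjusted p = 0.00989). Their LHSR12 replicates lay further apart than those of their other groups.

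The other named falls were smaller. AT2TE86210 (−1.99), AT2TE86100 (−1.95), AT5TE67705 (−1.94) and AT1TE36890 (−1.55) had means of 41.6, 30.0, 32.8 and 47.7 scaled reads in LHSR12, above their CTRL means of 14.8, 9.29, 3.10 and 31.0. AT3TE63110 had 0 and 0.986 in LHSR84 against 8.43 and 3.87 in LHSR12 (−2.26, limma adjusted p = 0.0266). Its call was lost in 8 of 17 alternatives, among them edgeR and DESeq2, and that of AT3TE43605 (−1.98, limma adjusted p = 0.0395) in 9. AT3TE41165 lost its call in 4, AT5TE50260 in 3, AT3TE63130 in 2, AT2TE86210 in 5, AT2TE86100 in 2, AT5TE67705 in 4 and AT1TE36890 in 2, in each case with the removal of a LHSR12 or LHSR84 library among them.

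Element identifiers are numbered along each chromosome, so their order stands in for position, which is not used here. The members lay on all 5 chromosomes. They made up 31.7% of the element loci with a CTRL mean of at least 3 on chromosome 1, 35.5% on chromosome 2, 37.4% on chromosome 3, 37.9% on chromosome 4 and 27.8% on chromosome 5. When identifiers of each chromosome were cut into 5 equal parts, the members were 111 of 405 such loci in the first (27.4%), 54 of 138 in the second (39.1%), 46 of 102 in the third (45.1%), 89 of 273 in the fourth (32.6%) and 162 of 459 in the fifth (35.3%). Members were thus found in all chromosomes and all parts of them.

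Members tended to be next to each other in this order. Another member was the next identifier for 92 of the 462 (19.9%), while a member was next to 47 of the 915 loci outside the rule (5.14%). There were 39 pairs, 3 runs of 3 and 1 run of 5. Neighbouring loci can lie under a single transcript, so neighbours are not separate observations. The runs and the group of near identifiers described next were singled out after their values were seen.

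The run of 5 on chromosome 3 was AT3TE43605, AT3TE43610, AT3TE43615, AT3TE43620 and AT3TE43630. AT3TE43615 had 121 and 123 scaled reads in CTRL, 13.0 and 15.2 in LHS, 522 and 299 in LHSR12, and 197 and 233 in LHSR84. AT3TE43610 had 63.7 and 113 in CTRL, 4.01 and 4.06 in LHS, 359 and 215 in LHSR12, and 158 and 149 in LHSR84. All 5 loci were highest in LHSR12, and LHSR12 replicate 1 was above replicate 2 at each. In CTRL and LHSR84 the order of the replicates differed among the 5. LHSR84 was below LHSR12 at AT3TE43615 (log2 fold change −0.88, limma adjusted p = 0.0403, lost in 9 of 17 alternatives) and at AT3TE43605, and was not called at AT3TE43610 (limma adjusted p = 0.0970), AT3TE43620 (0.114) or AT3TE43630 (0.0504). The next identifier, AT3TE43635, lay just outside the ratio threshold.

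In a run of 3 on chromosome 4, AT4TE21085 had 60.3 and 53.3 scaled reads in LHSR84 against 16.1 and 15.5 in LHSR12 (log2 fold change 1.78, SE 0.37, limma adjusted p = 0.00645), beside 0 in both LHS libraries and 78.6 and 62.2 in CTRL. Its neighbours AT4TE21090 and AT4TE21095 were not called (limma adjusted p = 0.988 and 0.316) and had 27.6 and 11.6, and 32.2 and 13.9, in LHSR12. A run need not move as one. The run AT3TE32775, AT3TE32780 and AT3TE32785 stayed under 4 scaled reads in every LHS, LHSR12 and LHSR84 library, beside 2.71 to 16.3 in CTRL. In the run AT1TE29080, AT1TE29140 and AT1TE29145, AT1TE29140 had 91.0 and 59.2 in LHSR84 and 66.6 and 43.3 in LHSR12, beside a mean of 13.6 in LHS and 74.5 and 64.4 in CTRL, and none of the 3 was called.

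On chromosome 1, the 5 members AT1TE71760, AT1TE71765, AT1TE71775, AT1TE71830 and AT1TE71840 have near identifiers. All 5 were higher in LHSR84 than in LHSR12 by limma, with log2 fold changes of 1.38, 0.98, 1.05, 1.32 and 1.00. Their LHSR84 means were 1.96, 1.77, 1.91, 1.91 and 1.78 times CTRL (ratio with 1 added to each mean), values that were seen before these loci were picked. In LHS they differed, with ratios of 0.00401, 0.359, 0.161, 0.00275 and 0.0571. AT1TE71765 had 358 and 309 scaled reads in LHSR84, 152 and 186 in LHSR12, 71.1 and 62.9 in LHS and 192 and 185 in CTRL. The call of AT1TE71840 was lost without any 1 of the LHSR12 and LHSR84 libraries, with the replicate number as a block and with only those 2 groups in the fit, and those of the other 4 held in each of 17 alternatives.

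**Figure D5:**
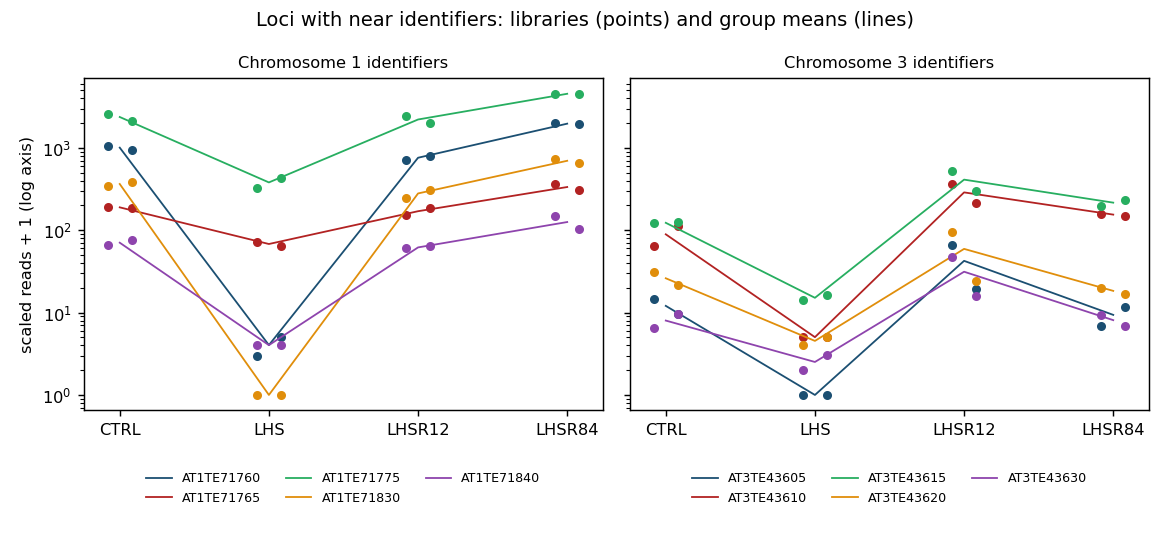
Scaled reads plus 1 (y axis, log) in the 4 groups (x axis) for members with near identifiers on chromosomes 1 and 3. Points are libraries and lines join group means. The chromosome 1 loci were highest in LHSR84, and the chromosome 3 loci were highest in LHSR12.

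Genes that act on silencing were followed in a list of 37, all of which passed the filter. Most add or keep silencing marks, while ROS1 and IBM1, a histone demethylase, remove such marks. In LHS against CTRL, 20 rose and 5 fell by limma, with a median log2 fold change of 0.44. Over all loci the median was 0.09, and 35.4% were higher and 31.1% lower. AGO6, which binds small RNAs in RNA-directed DNA methylation, had 490 and 457 scaled reads in LHS against 122 and 104 in CTRL (2.06, SE 0.22, limma adjusted p = 5.73e-05). VIM1, a factor that maintains CG methylation, had 4786 and 5242 in LHS against 1040 and 1519 in CTRL (1.99, SE 0.18, limma adjusted p = 2.16e-05). RDR2, the polymerase that makes the double-stranded RNA of the pathway, had 1105 and 1087 in LHS against 325 and 352 in CTRL (1.69, SE 0.14, limma adjusted p = 1.44e-05). These genes act in adding or keeping silencing marks.

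The falls in LHS included ROS1, the DNA glycosylase that removes methylation, with 153 and 218 scaled reads in LHS against 964 and 1204 in CTRL (log2 fold change −2.55, SE 0.19, limma adjusted p = 7.87e-06). FAS1 and FAS2, subunits of the chromatin assembly factor CAF-1, fell by 1.41 (SE 0.20, limma adjusted p = 0.000328) and 0.70 (SE 0.21, limma adjusted p = 0.0156) on the log2 scale. FAS1 had 408 and 295 in LHS against 769 and 1110 in CTRL. The remaining falls were SUVH6 (−0.60, SE 0.15, limma adjusted p = 0.00626) and CMT2 (−0.47, SE 0.17, limma adjusted p = 0.0361). CMT2 adds methylation, so the falls were not confined to a gene that removes it. The list was chosen with earlier results of these data known.

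Between recovery times, 11 of the 37 genes of the list were higher in LHSR84 than in LHSR12 and 3 lower, with a median of 0.19 beside −0.08 over all loci, of which 16.5% were higher and 19.5% lower. ROS1 had 1715 and 2002 scaled reads in LHSR84 against 211 and 240 in LHSR12 (3.04, SE 0.19, limma adjusted p = 2.27e-05), above both CTRL values. CLSY1, a chromatin remodeller that recruits the polymerase of RNA-directed DNA methylation, had 711 and 878 in LHSR84 against 429 and 332 in LHSR12 (1.06, SE 0.17, limma adjusted p = 0.00173). CMT2, a chromomethylase that methylates long elements outside CG sites, had 1049 and 1302 in LHSR84 against 732 and 575 in LHSR12 (0.85, SE 0.17, limma adjusted p = 0.00570). These genes do opposite things, as ROS1 removes methylation and CMT2 adds it.

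DCL2, a Dicer-like ribonuclease, had 749 and 712 scaled reads in LHSR84 against 1086 and 1043 in LHSR12 (log2 fold change −0.54, SE 0.12, limma adjusted p = 0.00986). MORC1, an ATPase of gene silencing, was lower by limma (−0.45, SE 0.12, limma adjusted p = 0.0183), as was HDA6, a histone deacetylase (−0.34, SE 0.10, limma adjusted p = 0.0292). The list's 14 calls became fewer when any 1 of the LHSR12 or LHSR84 libraries was left out, as did the calls over all loci. Any link between these genes and the members was not tested.

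Markers of tissues were set beside the members. The summed scaled reads of 5 leaf mesophyll markers were 553380 and 509120 in CTRL, 125730 and 149080 in LHS, 186370 and 199380 in LHSR12, and 535450 and 504360 in LHSR84, all of them lower in LHS by limma, and 3 higher and 2 lower in LHSR84 than in LHSR12. Their sum was lowest in LHS and near CTRL in LHSR84, as was that of the members, but RBCS1A held more than 0.5 of it in each library and not all markers took this course. LHCB1.2 had 1848 and 2797 in LHSR84 against 14680 and 17679 in LHSR12, and GLK1 had 3231 and 3117 in LHSR84 against 5447 and 4714 in LHSR12, above CTRL (3010 and 2982) at 12 h. Of 6 root markers 5 were lower in LHS, with sums of 2090 and 1767 in LHS against 4634 and 4210 in CTRL, and 2 were higher and 2 lower in LHSR84 than in LHSR12 (sums of 4121 and 3789 against 3681 and 3749). The sums of 3 seed markers were 400 and 55.8 in LHS against 471 and 1640 in CTRL (2 of 3 lower), and 214 and 94.7 in LHSR84 against 36.8 and 17.0 in LHSR12 (0 called). The pollen markers VGD1 and PPME1 summed to at most 14.8 in any library, and PPME1 was at 0 in both CTRL and both LHSR12 libraries. The part of tissue composition in the members' values was not tested.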

How the data were processed

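RNA was measured in 8 libraries, 2 in each of 4 groups. The libraries were strand-specific and made from TRIzol-extracted total RNA, per the labels' protocols. Per the submitters' processing notes, the tools included DESeq2 1.14.1, HTSeq 0.9.1, STAR 2.5.3a and CASAVA, with the TAIR10 build and no roles given. Strand use in counting and the handling of reads that match several places are not given in the sources used here, so values of near-identical or overlapping loci are uncertain.

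The deposited signal was the authors' read count divided by a factor for the library (scaled reads). Every nonzero value (100% in each library, tolerance 0.001) was a whole multiple of the library's smallest, and reads were recovered in 7 libraries. The step of LHS replicate 1, 1.0014, fell within a cut-off set around 1, so its reads were not taken as recovered. Its values were whole multiples of that step all the same, and edgeR and DESeq2 were run without it. Depth at gene loci was 18.9 M to 28.3 M reads, and LHS replicate 1 had 25.4 M scaled reads.

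Limma 3.58.1 in R 4.3.3 (limma-trend) was fitted on log2 of the value plus 1 over all 8 libraries, without a block. Loci with a mean of at least 1 were tested, 27638 in all (24624 gene loci and 3014 element loci), with Benjamini-Hochberg adjustment over all of them, two-sided, called below 0.05. The fit was tested on simulated libraries of 27644 loci, with 50 loci changed in LHSR84 at each size. It found 12% of 1.5-fold changes, 72% of 2-fold changes and 100% of those of 4-fold or 8-fold. Of its 144 calls, 2 were false. The simulation set the same spread beyond counting error for all loci, changed few loci and left low loci out of those changed. Members had low counts and less precise replicates, so these rates do not carry over to them. Replicate numbers did not pair the samples: correlations of replicate differences between groups ran from −0.06 to 0.04.

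The members, lists and tests were chosen with earlier results of these data known. Members named were the 6 with the highest CTRL mean, the 6 with the lowest LHS ratio at a CTRL mean of at least 10, the 10 largest rises and 10 largest falls called between recovery times, the 3 with the highest CTRL mean in each class of recovery, and the 2 nearest each side of each threshold. Genes named from the silencing list were the 3 largest rises and 3 largest falls among those called in each comparison, and the remaining falls in LHS. Alternatives included edgeR 4.0.16 and DESeq2 1.42.0 on the recovered reads. The genome annotation used here holds no element loci, so no positions or sequences of elements are given.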

Additional observations from a re-analysis of the deposited data

How the results depend on the processing

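Among the named members, none of those called changed direction in an alternative. Other called members and the silencing list were followed only by count. With a stricter adjusted p of 0.01, LHSR84 was above LHSR12 at 52 members and below at 5, and all loci were not counted at that threshold. Leaving out 1 library in turn gave 50 to 106 higher and 6 to 18 lower members, a median log2 fold change of 0.51 to 0.62, 20 to 25 genes of the silencing list called in LHS against CTRL and 4 to 15 in LHSR84 against LHSR12, and 469 to 530 loci by the rule. The group left with 1 library is then assumed to vary like the others. The replicate block gave 91 higher and 15 lower members, beside 4409 and 5199 of all loci. It called 24 genes of the silencing list in LHS against CTRL and 12 in LHSR84 against LHSR12. The members' median log2 fold change was 0.68 by edgeR and 0.66 by DESeq2. By edgeR 96 members were higher and 19 lower, beside 4619 and 4238 of all loci. By DESeq2 69 members were higher and 12 lower, beside 4132 and 4010 of all loci. The rule chose 293 loci at a CTRL mean of at least 10 and 285 at a ratio of at most 0.25. The other alternatives left these counts within 1.5 times. Depth limits the members under 20 CTRL reads, 191 of 462, most.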
